A study of Caenorhabditis elegans with 3 samples.

Results

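Binding of MML-1 was examined at 10 autophagy genes of Caenorhabditis elegans, namely lgg-2, lgg-1, atg-9, atg-2, epg-9, unc-51, atg-18, hlh-30, sqst-1 and bec-1, of 19973 protein-coding genes in the annotation. For each gene, all regions with a summit in the gene body or 3 kb on each side were taken from the authors' ChIP-seq lists. This gave 50 of 30000 regions of the pooled list. Of these, 5 were among the 195 peaks of the reproducible list, which held 0.650% of all pooled regions. The replicate lists gave 66 of 30000 regions for replicate 1, 47 of 30000 for replicate 2 and 51 of 27021 for replicate 3. The genes were chosen, and the regions ranked, with the binding values known, so counts and ranks are given as a description and without tests. The pooled and replicate lists hold background as well as peaks, and a region outside the reproducible list is not by itself a binding site.

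The larvae were strain OP198, which carries the unc-119(ed3) mutation on chromosome III and the transgene wgIs198, and were of mixed sex at the L3 stage. The transgene supplies MML-1 with a tag, given as eGFP in one label and elsewhere as GFP-FLAG joined to the C terminus. There is 1 group of 3 biological replicates and no second condition, and an untagged strain was not analysed here. The labels of replicates 1 and 2 state that the strain came from a stock centre and give sizes of 150 to 350. Those of replicate 3 give the submitting laboratory and sonication by microtip. All 3 were called against the same control library, so they are not independent of one another in that respect. In whole larvae, a strong region in few cells and a weak one in many cannot be told apart. None of the 10 genes lies on chromosome III, which holds the endogenous mml-1 and unc-119 genes.

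Autophagy encloses cytoplasm or selected cargo in a double membrane that fuses with the lysosome. A kinase complex starts it, a lipid kinase complex and membrane proteins build the enclosing membrane, and ubiquitin-like proteins are joined to that membrane as it grows. MML-1 belongs to the Mondo family of transcription factors and binds DNA through a basic helix-loop-helix domain, paired with MXL-2. HLH-30, the worm counterpart of mammalian TFEB, is another basic helix-loop-helix factor and a known activator of autophagy genes. Both kinds of factor recognise E-boxes, which have the form CANNTG, and CACGTG is the E-box best known for both.

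The sites under the 5 reproducible peaks show where CACGTG was present near the summit and where it was not. Each is printed 5′ to 3′ as 30 bases of the WBcel235 genome (RefSeq copy, ce11 coordinates), with the CACGTG nearest to the summit in capitals at epg-9, atg-2 and atg-9. The lgg-2 peaks had no CACGTG within 100 bp of the summit, and their nearest CACATG is in capitals instead, on the strand that reads so. Other E-boxes within 100 bp are not marked. The epg-9 peak also held CAAGTG, with CATATG besides. The atg-9 peak and the intronic lgg-2 peak each held CAGCTG, the first with CAAATG as well and the second with CAAGTG.
epg-9: caagtgttcaatCACGTGaaaactcatcac
lgg-2 first intron: tcagctgattttCACATGtctcacttgcat
atg-2: tcacgctcttttCACGTGttctacggacca
atg-9: ccacccgctgttCACGTGccccctccctcc
lgg-2 upstream: gagcgtcgaggaCACATGaccgcgagacgg

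All 5 are on the plus strand of the genome. They lie at chrIV:2602086-2602115 for epg-9, chrIV:10935485-10935514 and chrIV:10936175-10936204 for lgg-2, chrX:6807575-6807604 for atg-2 and chrV:349206-349235 for atg-9. Rounded down to whole bp, the centre of the E-box was 14 bp from the summit at epg-9, 22 bp at atg-2 and 12 bp at atg-9. At lgg-2 the centre of the CACATG was less than 1 bp from the summit of the intronic peak and 5 bp from that of the upstream peak, which had 2 CACATG sites within 100 bp. All these distances are from the pooled summit. The summits of replicates 1, 2 and 3 lay 25, 0 and 83 bp from it at epg-9 and 48, 22 and 68 bp at atg-2. At the lgg-2 peaks they lay 28, 0 and 36 bp away in the intron and 105, 22 and 40 bp away upstream.

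Of the 10 genes, 4 had a reproducible peak, namely epg-9, lgg-2, atg-2 and atg-9. Among all protein-coding genes the share by the same window was 1.32%, from which nothing is read because the genes were chosen by these values. The windows of the 10 genes were longer than usual, at a median of 10.8 kb against 8.0 kb over all protein-coding genes, and held 3.96 pooled regions per 10 kb against 3.08. Counting any region of the first 1000 of the pooled list, 5 of the 10 genes had one, with hlh-30 as the fifth, against 7.31% of all protein-coding genes. The best pooled rank had a median of 1732.5 over the 10 genes and of 8182 over all protein-coding genes. For the 10 genes that median was 5012.5 with a flank of 1 kb and 362.5 with one of 5 kb.

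**Figure D1:**
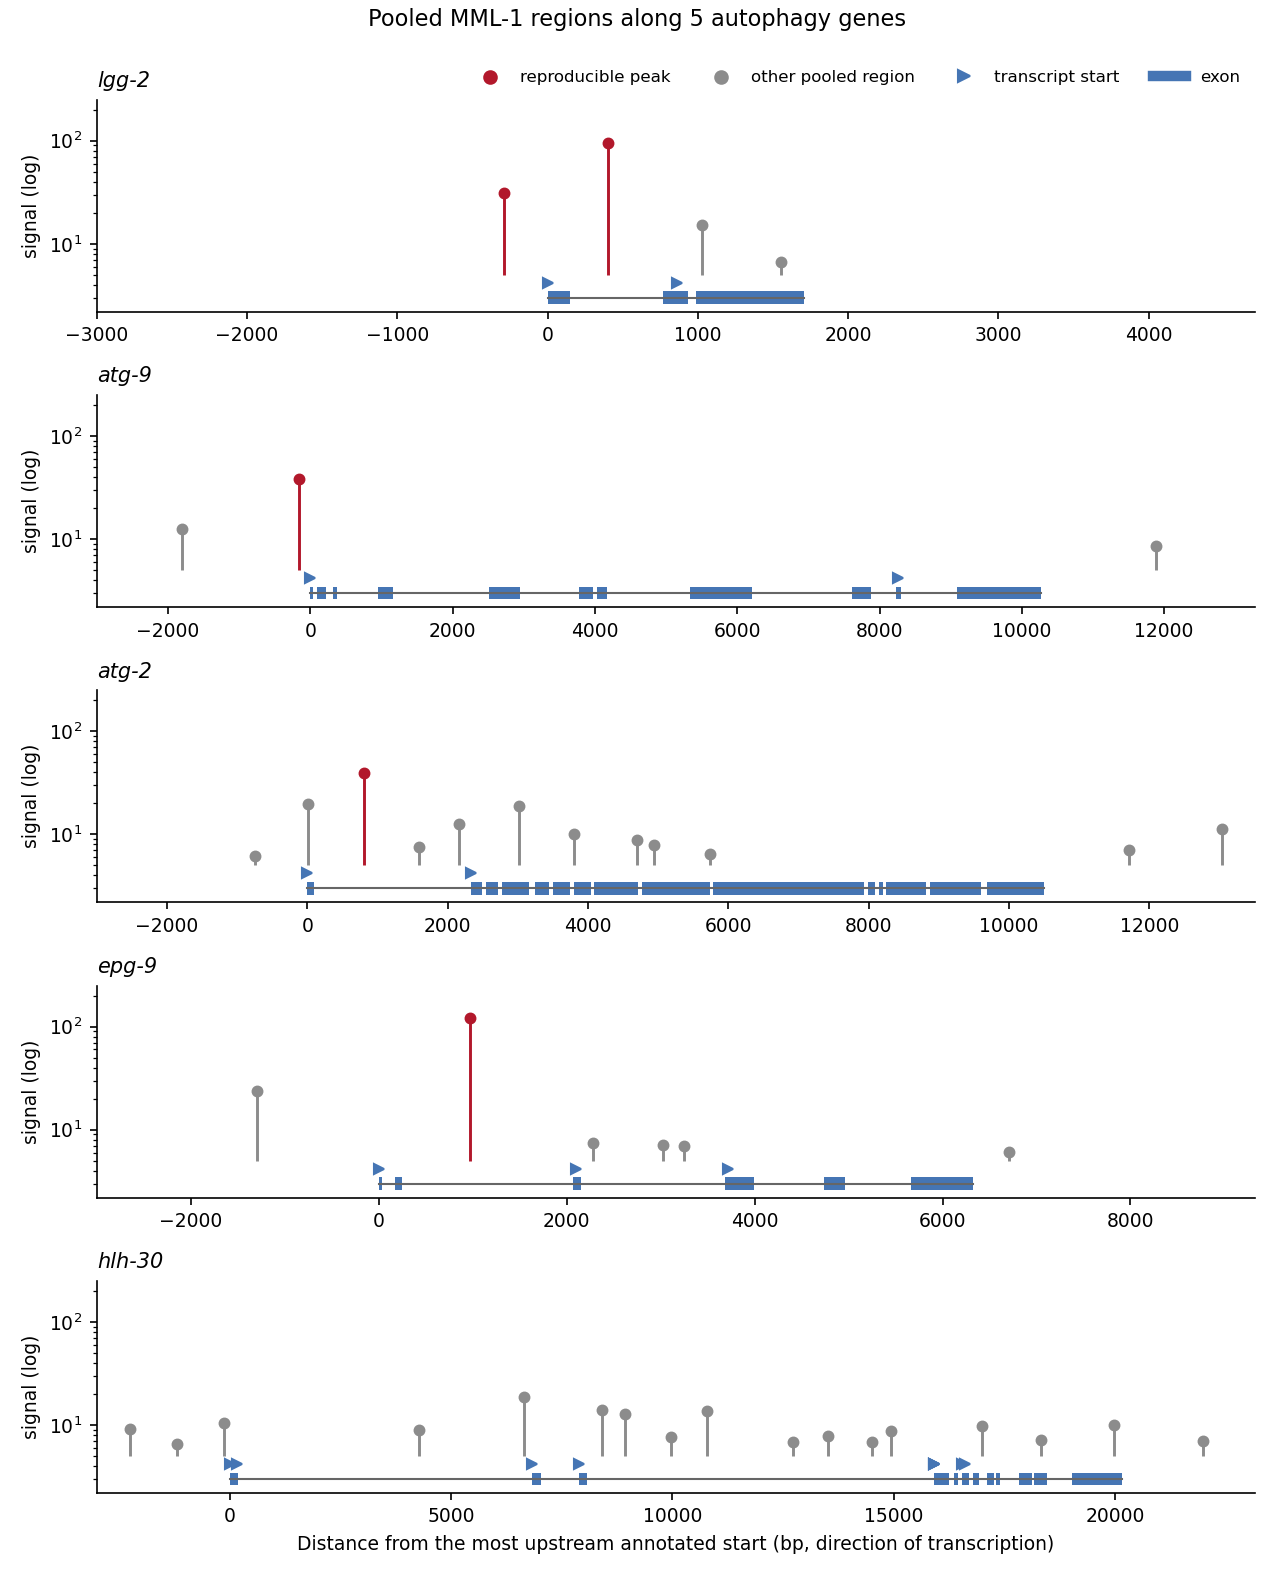
Pooled MML-1 regions at lgg-2, atg-9, atg-2, epg-9 and hlh-30, from 3 kb before to 3 kb after each gene. The x axis is the distance in bp from the most upstream annotated start in the direction of transcription, and the y axis is the authors' signal value in the pooled list on a log scale; exons, transcript starts and summits are marked. The reproducible peaks of epg-9, atg-2 and lgg-2 lie in introns at 974, 804 and 404 bp, that of atg-9 and a second one of lgg-2 lie at -152 and -292 bp, and hlh-30 has 17 regions and none of them is reproducible.

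Among the ubiquitin-like proteins, lgg-2 (WBGene00002981), which encodes the LC3 homologue, held 2 reproducible peaks. The higher one, at chrIV:10935444-10935564, ranked 38 in the pooled list with a signal of 94.2. It lay in intron 1 of 2 of the longer transcript, 404 bp downstream of its start and 460 bp upstream of the start of the shorter transcript. It therefore counted as a promoter region by the shorter transcript and as an intronic one by the longer. The matching regions of replicates 1, 2 and 3 ranked 36, 223 and 30, with signals of 43.5, 9.7 and 39.6 on the scale of each list. Replicate 2 placed it lower than the others, and its summit there fell on the same base as in the pooled list. The summits of replicates 1 and 3 lay 28 and 36 bp from the pooled summit.

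The other lgg-2 peak, at chrIV:10936053-10936336, lay 292 bp upstream of the longer transcript, with a pooled rank of 141 and a signal of 31.4. Its ranks were 17252, 81 and 74 in replicates 1, 2 and 3, with signals of 4.0, 13.2 and 18.4. The replicate that ranked it low was thus another than at the intronic peak, and the summit of the region in replicate 1 lay 105 bp away. One more lgg-2 region within the first 1000, in a coding exon 161 bp downstream of the shorter transcript's start, ranked 949 and was matched in replicate 1 alone, at rank 1107. It was the lowest of the 10 such regions.

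The nearest CACGTG to the intronic lgg-2 summit lay 4033 bp away, and to the upstream one 3337 bp away. Over the whole reproducible list, 79 of 195 peaks had no CACGTG within 100 bp, and 34 of these, or 43.0%, had CACATG. The same share among the other pooled regions without CACGTG was 7.69%. In the order of signal, the intronic lgg-2 peak was number 9 of the 79 peaks without CACGTG and number 7 of the 34 with CACATG. In 13 of those 34 the centre of a CACATG lay within 10 bp of the summit, both lgg-2 peaks included, and the median distance was 19 bp.

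**Figure D2:**
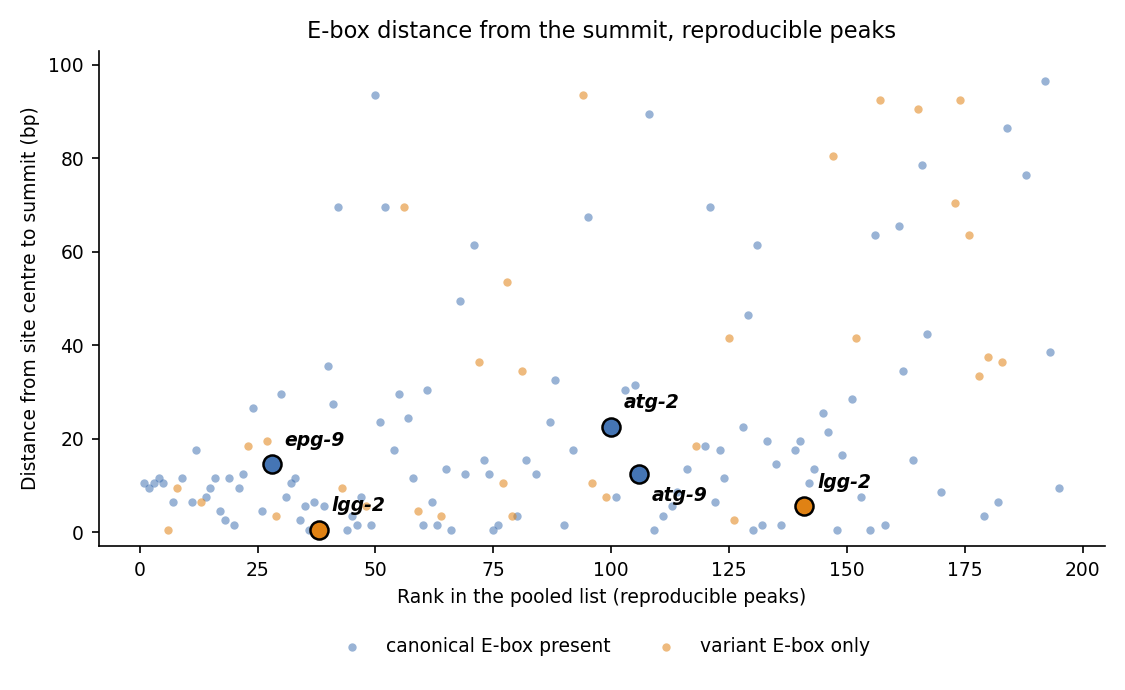
Distance in bp from the centre of the nearest CACGTG or CACATG to the summit (y axis) against the pooled rank (x axis) for reproducible peaks with CACGTG within 100 bp (blue) or with CACATG only (orange); peaks with neither are not drawn. Outlined points are peaks at the autophagy genes: both lgg-2 peaks are orange, at less than 1 bp and at 5 bp, and epg-9, atg-2 and atg-9 are blue, at 14, 22 and 12 bp.

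The other ubiquitin-like gene, lgg-1 (WBGene00002980), which encodes the GABARAP homologue, had 1 pooled region and no reproducible peak. That region, at chrII:6345695-6345978, ranked 3033 and lay 1882 bp downstream of the lgg-1 start, 85 bp downstream of the start of the neighbouring gene C32D5.8. It ranked 728 in replicate 1 and had no match in the other replicates. Replicate 3 had regions at ranks 877 and 948, at -763 and 359 bp from the lgg-1 start, with no pooled region within 200 bp. The first was matched in replicate 1 at rank 4903 and the second in replicate 2 at rank 29019. No region at lgg-1 was among the first 1000 of more than 1 replicate.

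Of the genes for the kinase complex that starts autophagy, epg-9 (WBGene00022078), whose product is the worm counterpart of the mammalian subunit Atg101, had the highest peak of the 10 genes. It lay at chrIV:2602080-2602212, with a pooled rank of 28 and a signal of 121.4. Its ranks were 23, 40 and 23 in replicates 1, 2 and 3, with signals of 59.4, 21.8 and 46.7. No replicate placed it outside the first 40. The summit lay in intron 2 of 5 of the transcript from the first start, 974 bp downstream of that start and 1129 bp upstream of the next annotated start.

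A second region at epg-9, at chrIV:2599701-2599984 and 1298 bp upstream, ranked 236 with a signal of 23.8. It was the region of these genes closest below the reproducible list, whose last peak had a signal of 26.0, and the lgg-2 upstream peak was the closest above that limit. Its ranks in replicates 1, 2 and 3 were 209, 8314 and 21079, so replicate 1 alone placed it high. The remaining 4 regions at epg-9 ranked from 17964 to 28667.

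The kinase itself, encoded by unc-51 (WBGene00006786), the counterpart of Atg1 and the ULK kinases, had 2 pooled regions, at ranks 13759 and 17736. The higher, at chrV:19996085-19996368, lay in an untranslated stretch of an exon 8258 bp downstream of the start. It ranked 21300 in replicate 1 and 18729 in replicate 2 and was not matched in replicate 3. A region in an intron of unc-51 ranked 923 in replicate 3 and was matched in no other list.

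Among the membrane proteins, atg-2 (WBGene00019748), which encodes a lipid transfer protein, had a reproducible peak at chrX:6807425-6807708. Its pooled rank was 100 and its signal 39.4. It ranked 165 in replicate 1, just outside the first 100 in replicate 2 and 171 in replicate 3, with signals of 14, 12.2 and 11.5. All 3 placed it within the first 200, close together. The summit lay in intron 1 of 14 of the longer transcript, a 2237 bp intron, 804 bp downstream of the start and 1528 bp upstream of the start of the shorter transcript.

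The gene atg-2 had 12 pooled regions, of which 2 more were in the first 1000. The region at the start itself, 16 bp downstream at chrX:6806637-6806920, ranked 365, and 3108, 135 and 6689 in replicates 1, 2 and 3. The one in a coding exon at chrX:6809631-6809914 ranked 419, and 900, 1137 and 12388 in replicates 1, 2 and 3. Both lacked CACGTG. The first was among the first 1000 of replicate 2 alone and the second among those of replicate 1 alone. The intronic peak was the only region of atg-2 within the first 1000 of every replicate.

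The gene atg-9 (WBGene00020706), which encodes the membrane-spanning protein that brings lipid to the growing membrane, had its reproducible peak at chrV:349091-349374, 152 bp upstream of the start. Its pooled rank was 106 and its signal 38.6. It ranked 749 in replicate 1 and 50 in replicate 3, with signals of 9.0 and 24.8. Replicate 2 had no summit within 200 bp, and its nearest one lay 969 bp away. The summits of replicates 1 and 3 fell within 1 bp of the pooled summit, so the place agreed between them while the ranks were far apart. The other 2 regions at atg-9, at ranks 2536 and 11598, lay in the bodies of the neighbouring genes wago-10 and T22H9.1.

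Neither of the 2 remaining genes of membrane formation had a region in the first 1000 of any list. The gene atg-18 (WBGene00018294), which encodes a phosphoinositide-binding protein of the WIPI family, had 2 regions. The higher, in a coding exon at chrV:8630758-8631041, ranked 9593 and was matched in replicate 2 alone, at rank 4692. The gene bec-1 (WBGene00000247), which encodes the Beclin homologue of the lipid kinase complex, also had 2. The higher, 1094 bp upstream at chrIV:5665377-5665660, ranked 7641 in the pooled list, 23687 in replicate 1 and 2067 in replicate 3.

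The cargo receptor gene sqst-1 (WBGene00011737) had a single pooled region, at rank 21793, at chrIV:12037023-12037306 downstream of the gene. No replicate had a summit within 200 bp of it. The best rank anywhere in the sqst-1 window was 15924, 13812 and 9033 in replicates 1, 2 and 3. Depth is unknown, so whether sqst-1 was free of binding cannot be told from such ranks.

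At the transcription factor gene hlh-30 (WBGene00020930) the regions were many and of low rank. It is the longest of the 10 genes, at 20159 bp with 13 annotated transcripts, and had 17 pooled regions in its window of 26.2 kb. The windows of all protein-coding genes held 3.08 pooled regions per 10 kb. The highest, at chrIV:4028163-4028446, ranked 432 with a signal of 18.7, in intron 1 of 10 of a long transcript and 178 bp upstream of an internal start. It ranked 2411 in replicate 1 and 109 in replicate 3, with signals of 7.1 and 14.7, and had no match in replicate 2, whose nearest summit lay 1727 bp away. As at atg-9, replicate 3 placed it highest and replicate 2 had no region there.

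The next 3 regions at hlh-30 ranked 1442, 1487 and 2053 and lay in intron 2, from 524 to 2894 bp downstream of an internal start. The region upstream of the first start, at 136 bp, ranked 5401. CACGTG was found near the summit, within 100 bp, in 3 of the 17 regions, at ranks 2053, 9271 and 20526. Its share over all pooled regions outside the reproducible list was 4.31%. The 3 sites are shown on the strand of the gene to set their flanks beside those of the reproducible peaks.
hlh-30 intron 2: cttggacagtgtCACGTGgtgttcggctag
hlh-30 upstream: ttattgacaactCACGTGgtatcaggccgc
hlh-30 intron 8: aatcatttcatgCACGTGgttttcttctgg

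These 3 lie on the minus strand at chrIV:4026071-4026100, chrIV:4037254-4037283 and chrIV:4016589-4016618. Their centres were 70, 73 and 27 bp from the summit, against a median of 12 bp over reproducible peaks with CACGTG. The site and summit of the last lie in a 65 bp intron in 12 of the 13 transcripts and in coding sequence in the remaining one, by which the region was counted as exonic. A T before and an A after CACGTG were found at epg-9 alone among the reproducible peaks of the 10 genes, and in 37 of the 116 reproducible peaks with CACGTG, or 31.9%. Among the 1284 other pooled regions with CACGTG the share was 9.97%. GT before and AC after it, as in the element bound by TFEB in mammals, were found at none of the printed sites, in 0 of the 195 reproducible peaks and in 1 other pooled region.

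Ordered by best pooled rank, the genes were epg-9 at 28, lgg-2 at 38, atg-2 at 100, atg-9 at 106, hlh-30 at 432, lgg-1 at 3033, bec-1 at 7641, atg-18 at 9593, unc-51 at 13759 and sqst-1 at 21793. The best rank over replicates ran from 23 to 40 at epg-9 and from 30 to 81 at lgg-2, so these overlapped, although epg-9 stood before lgg-2 in each replicate. At atg-2 all 3 best ranks lay between 100 and 171, beyond the best ranks of lgg-2. This order holds by gene and not for single peaks. In replicate 2 the lgg-2 rank of 81 belonged to its upstream peak. The intronic lgg-2 peak ranked 223 in that replicate, behind the atg-2 peak. At atg-9 the best rank ran from 50 to 4000 and at hlh-30 from 109 to 5395, and these ranges overlapped. Replicate 2 matched neither the atg-9 peak nor the highest hlh-30 region. Its ranks of 4000 and 5395 belonged to other regions, at pooled ranks 2536 and 23382. In replicates 1 and 3 the atg-9 peak stood before the highest hlh-30 region. The ranges of atg-9 and hlh-30 also overlapped that of atg-2. The ranges of the 5 genes without a pooled region in the first 1000 overlapped those of their neighbours as well. In all 3 replicates, epg-9, lgg-2 and atg-2 had a region among the first 1000, as did 1.11% of all protein-coding genes. By replicate, 5, 3 and 7 of the 10 genes had one in replicates 1, 2 and 3, against 7.78%, 8.25% and 7.57% of all protein-coding genes.

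**Figure D3:**
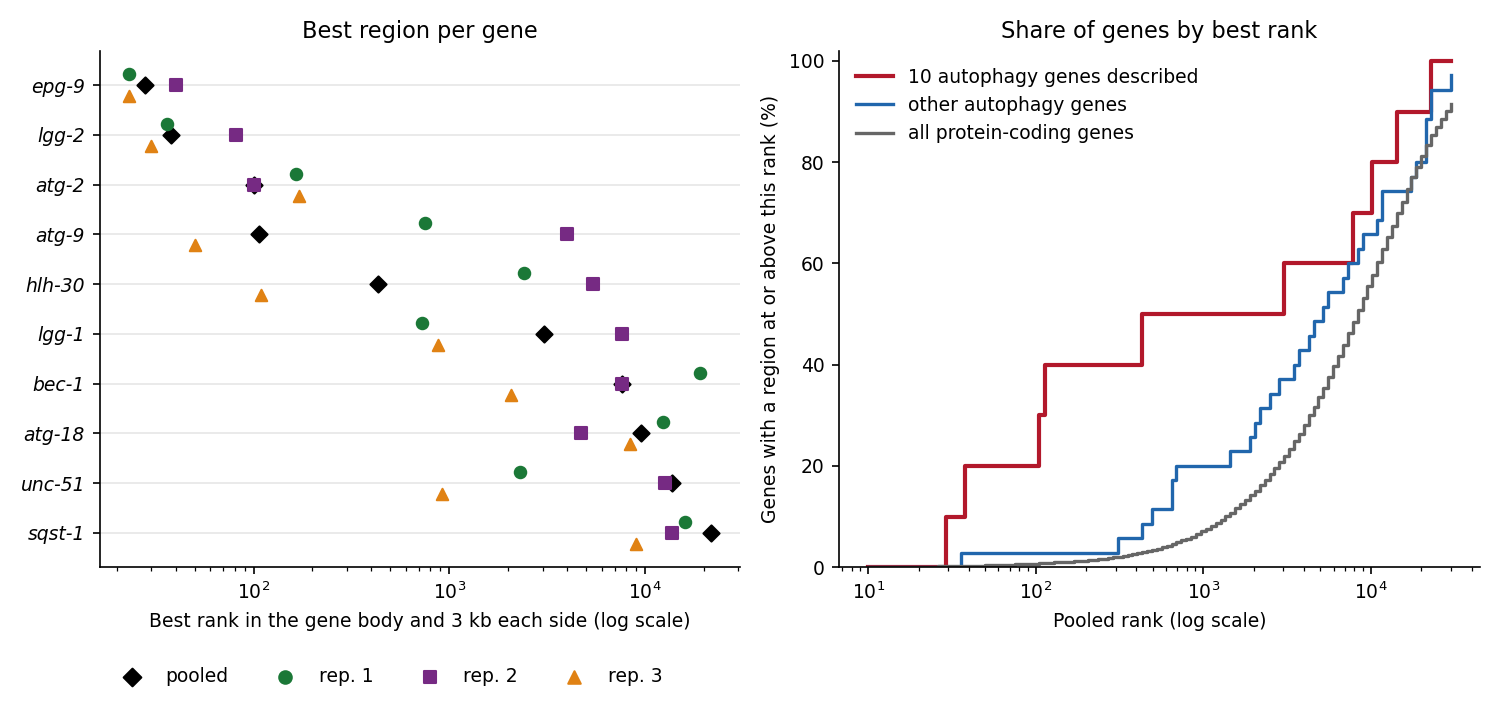
Left, the best rank in the gene body and 3 kb each side (log x axis) for each of the 10 genes in the pooled list and in replicates 1, 2 and 3. Right, the percentage of genes (y axis) whose best pooled rank is the one on the log x axis or a better one, for the 10 genes, the other autophagy genes and all protein-coding genes. The genes epg-9, lgg-2 and atg-2 lie left of rank 200 in every list, and replicate 2 has the poorest rank of the replicates at epg-9, lgg-2, atg-9, hlh-30, lgg-1 and unc-51.

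Promoter and intronic sites were compared next. Of the 50 pooled regions, 18 lay in a promoter window of any gene, or 36.0% (95% exact interval 22.9 to 50.8), against 29.4% of all pooled regions. For 15 of them the window was that of the autophagy gene itself: 4 lay upstream of the gene, 8 in its introns before or just after an internal start and 3 in its exons. A further 13 regions lay in introns outside any promoter window, 8 in exons, 7 upstream and 4 downstream. The best rank was 38 in own promoter windows and 28 in introns, and the median rank was 5401 in own promoter windows and 7627 in introns.

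Of the reproducible peaks, 3 were in own promoter windows, 2 at lgg-2 and 1 at atg-9, and 2 were intronic, at epg-9 and atg-2. Both intronic peaks held CACGTG and were near a top 1000 region of every replicate. Of the 3 promoter peaks, 1 held CACGTG, that of atg-9, and 1 was near a top 1000 region of every replicate, that in the first intron of lgg-2. Over the whole reproducible list, 35 peaks lay in introns outside promoter windows and 92 in promoter windows. CACGTG was in 74.3% of the intronic and 53.3% of the promoter peaks. A top 1000 region of every replicate lay near 65.7% of the intronic and 56.5% of the promoter peaks. With 2 and 3 peaks, the autophagy genes are too few to set against these shares. The classes also rest on the 1000 bp limit, as the epg-9 and atg-2 summits lay 1129 and 1528 bp upstream of an internal start. With a promoter window of 2000 bp upstream, both would be promoter peaks. No reproducible peak of these genes would then be intronic outside promoter windows. Of the 35 intronic peaks, 10 lay within 1000 bp of an upstream start of the same gene, epg-9 and atg-2 included.

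Of the 50 pooled regions, 7, or 14%, had CACGTG within 100 bp of the summit, against 4.67% of all pooled regions. Among the 5 reproducible peaks 3 held it, which is 60.0% (14.7 to 94.7 by the exact method at 95%), and the share over all reproducible peaks was 59.5%. Among the 45 other regions of the 10 genes it was in 4, or 8.89% (2.48 to 21.2), against 4.31% of other pooled regions. Of the 10 regions in the first 1000, the same 3 peaks at epg-9, atg-2 and atg-9 held it.

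Recovery in the replicates followed the pooled rank. The pooled and reproducible lists were derived from these same 3 replicates. That order was thus at least partly built in, and the shares below only describe it. In replicates 1, 2 and 3, 5, 4 and 5 of the 5 reproducible peaks had a summit within 200 bp, against 99.5%, 92.8% and 94.4% of all reproducible peaks. With 5 peaks no difference from those shares can be read. Of the 5 peaks, 3 were near a top 1000 region of every replicate, against 57.4% of all reproducible peaks. Of the 5 regions between ranks 196 and 1000, 3 were matched in all 3 replicates, against 39.9% of all pooled regions in those ranks. Of the 40 regions past rank 1000, 1 was matched in all 3, against 3.39% of all pooled regions past that rank, and 6, or 15%, were matched in none, against 12.6%. Over all 50 regions, 36, 21 and 23 were matched in replicates 1, 2 and 3, or 72.0%, 42.0% and 46.0%, against 49.7%, 44.9% and 33.7% of all pooled regions.

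**Figure D4:**
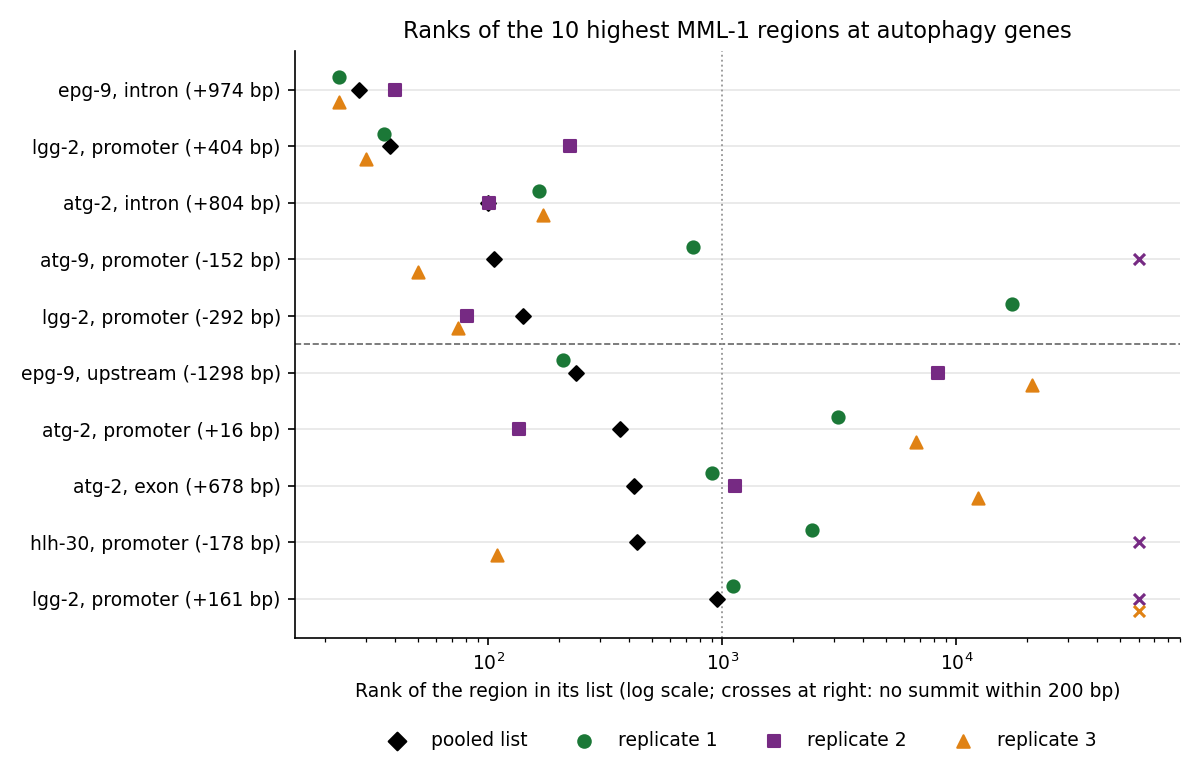
Rank (log x axis) in the pooled list and in replicates 1, 2 and 3 of the 10 regions of the autophagy genes within the first 1000 of the pooled list, with class and distance in bp from the nearest start of the gene; crosses mark replicates with no summit within 200 bp and the dotted line marks rank 1000. The 5 sites above the dashed line are reproducible peaks, of which those in introns of epg-9 and atg-2 have their ranks close together and that in the intron of lgg-2 ranks between 30 and 223; the other sites lie further apart or lack a replicate.

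The 3 reproducible peaks whose ranks were most like those of the intronic lgg-2 peak, by Euclidean distance of log10 ranks over 3 replicates among 168 peaks, were nearest to mdl-1, M01H9.3 and aak-2. Their distances were 0.32, 0.44 and 0.44. The peak 1103 bp upstream of mdl-1 ranked 64, 142 and 34, that 6 bp upstream of M01H9.3 ranked 94, 203 and 40, and that 918 bp downstream of an aak-2 start ranked 61, 462 and 47 in replicates 1, 2 and 3. All 3 held CACGTG.

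The rest of the pathway was described from 35 other autophagy genes. A reproducible peak was found at 1 of them, or 2.86%, against 1.32% of all protein-coding genes. A region of the first 1000 of the pooled list was found at 7 of the 35, against 7.31% of all protein-coding genes. Any pooled region was found at 34, and at 91.5% of all protein-coding genes, so that count says little about these genes. Their best pooled rank had a median of 4981, against 8182 over all protein-coding genes. The peak was at epg-7 (WBGene00020334), which encodes a scaffold protein for selective autophagy, at chrX:7334432-7334715 and 140 bp upstream of the start. It ranked 36 in the pooled list, with a signal of 100.2, and 34, 43 and 44 in replicates 1, 2 and 3, so all 3 placed it within the first 50. Its site, on the plus strand at chrX:7334560-7334589, lay less than 1 bp from the summit and had the T before and the A after the hexamer, like that of epg-9.
epg-7: gcctctgtacgtCACGTGatttgcagccgc

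None of the 6 genes with a region of the first 1000 outside the reproducible list had CACGTG at it. At epg-6, which encodes another WIPI protein, a region in intron 1 ranked 290, and 225 and 348 in replicates 1 and 2, with no match in replicate 3. It lay in a promoter window of epg-6 itself. At the mitophagy receptor gene dct-1 a region 1747 bp upstream ranked 415, and 192 and 22676 in replicates 1 and 2, with no match in replicate 3. At rab-7, a late endosome GTPase gene, a region 908 bp upstream ranked 658. The rab-7 region also lay in the promoter windows of W03C9.5 and mex-1 and ranked 12463, 10454 and 21713 in replicates 1, 2 and 3. The region at rank 488 near atg-7, which encodes the activating enzyme of the ubiquitin-like proteins, lay in the promoter windows of klc-1 and let-70. That region ranked 511, 5609 and 24273 in replicates 1, 2 and 3. The genes epg-5 and vps-33.2, which act in autophagosome maturation and membrane fusion, overlap in their windows and shared the regions at ranks 611 and 671. The first of these lay in the promoter window of dnj-8 and the second 10 bp upstream of vps-33.2. When replicate 3 was left out, so that top 1000 regions shared by replicates 1 and 2 stood in for the reproducible list, 4 of the 35 genes had one, namely epg-7, epg-6, epg-5 and vps-33.2. For epg-5 and vps-33.2 it was the same region, that at rank 611, which ranked 393 and 214 in replicates 1 and 2. The share of all protein-coding genes with a region of that list is not given.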

How the data were processed

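MML-1 ChIP-seq was measured in 3 replicates of whole L3 larvae. Per the labels, the authors deposited region lists for each replicate and for the pooled replicates, described as peaks and background, and a reproducible list. All were called against the same control, per the file headers. Caller and threshold: not given in the sources used here. The authors' deposited signal value ranked regions within a list and was compared with no other list. Library depth is unknown because no read totals were given, and intervals (exact Clopper-Pearson, 95%) cover counting of regions only. The ce11 lists were read with the WBcel235 genome and Ensembl release 115 annotation, and the 5 ce10 lists were not used.

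Regions were taken where the summit lay in a gene body or 3 kb on each side. The summit of a replicate within 200 bp was a match. A promoter window covered 1000 bp before and 200 bp after the start of each protein-coding transcript, and hexamers were searched on both strands within 100 bp of the summit.

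The members, gene lists and rule for named regions were chosen with earlier results of these data known, so no p-values are given. The rule names all 10 genes with every region of the first 1000 of the pooled list, or otherwise the highest one, and up to 8 other autophagy genes with such a region. It also names the 3 reproducible peaks whose ranks in the replicates lay nearest to those of the highest lgg-2 peak. Sequences at hlh-30 and epg-7 and the CACATG sites at lgg-2 were added after their values were seen. Of 39 other autophagy symbols, 35 were matched in the annotation. Steps were tested on simulated data. Alternatives varied the flank, the promoter and summit windows, the matching, the peak list and the replicates. Tables were joined with pandas 2.3.3 and numpy 2.4.6, intervals came from SciPy 1.17.1 and plots from matplotlib 3.10.9, under Python 3.11.15.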

Additional observations from a re-analysis of the deposited data

How the results depend on the processing

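Alternatives were run for 9 counts, shares and medians. With the 98 reproducible peaks of highest signal alone, 2 of the 10 genes, epg-9 and lgg-2, had a peak, and 2 peaks were left, against 4 genes and 5 peaks. Leaving out 1 replicate at a time, with top 1000 regions shared by the others in place of the reproducible list, gave 3 to 4 genes, 3 to 4 peaks and 1 to 4 of the other autophagy genes. Those lists held 144, 215 and 179 regions without replicates 1, 2 and 3. The share of all protein-coding genes with such a region is not given, so these counts have no background to be read against. The highest number of other genes, 4, with epg-5 and vps-33.2 sharing a region, and the lowest number of peaks, 3, came without replicate 3. The peak list and the replicates changed together there. The median best pooled rank was 5012.5 with a flank of 1 kb and 362.5 with one of 5 kb, against 1732.5. Without 1 replicate, the median best rank in each of the 2 remaining replicate lists was averaged, which gave 1025.25 to 3285. No pooled list of 2 replicates was ranked, so these averages are not pooled ranks. The SD of the median best rank over the replicate lists was 2370. It is larger than the pooled median, so it sets no useful limit on these shifts. With a promoter window from 2000 bp upstream to 500 bp downstream, 60.0% of the regions were promoter regions, against 36.0%, and with that of 500 bp upstream to 100 bp downstream 24.0%. The wider window also takes in the intronic peaks of epg-9 and atg-2. What caused these shifts was not tested. Without read totals, a low or missing region in 1 replicate cannot be weighed by its depth.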

Other observations

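Regions that ranked among the first 1000 of a single replicate were looked at apart from the pooled list, and this choice was made after the values were seen. The 10 autophagy genes had 7 such regions in replicate 1, 6 in replicate 2 and 10 in replicate 3. They lay at 5, 3 and 7 of the 10 genes, where 7.78%, 8.25% and 7.57% of all protein-coding genes had one. All 7 of replicate 1, 5 of replicate 2 and 7 of replicate 3 had a pooled summit within 200 bp. The regions without one were those of replicate 3 at lgg-1, at ranks 877 and 948, and in an unc-51 intron, at rank 923, and that of replicate 2 at 1107 bp upstream of atg-2, at rank 858. None of these 4 held CACGTG. The share of all top 1000 regions of each replicate with a pooled summit is not given. Nothing is therefore read from the 7, 5 and 7. In the intron of epg-9, 107 bp downstream of an internal start, a region ranked 663 in replicate 3 and 17964 in the pooled list, and it was matched in neither of the other replicates.

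The intronic peaks of lgg-2 and epg-9 were 121 and 133 bp wide, where 29961 of the 30000 pooled regions were 284 bp wide. In the reproducible list 38 peaks were narrower than 284 bp, with a median pooled rank of 20.5.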
